A study of Mus musculus with 2 samples.

Results

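The barcodes described here stood in the matrix of 1 single-nucleus RNA-seq library of the mouse stria vascularis, named MethFix. A barcode marks the droplet, and so as a rule the nucleus, that a transcript was captured in, and each captured transcript was counted once as a unique molecular identifier (UMI). A second library of the same study, named RNAlater, was given as a separate matrix, and many barcodes stood in both. Of the 4748 barcodes in the MethFix matrix, 3596 had at least 200 genes, at most 8000 UMIs and at most 10% of their UMIs from the mitochondrial genome. Of these, 1157 were absent from the RNAlater matrix (MethFix-only) and 2439 were present in it (shared). Both matrices together held 8616 barcode entries. The groups were compared over all genes, then within 2 classes of barcode that were set by marker genes. Marginal barcodes had at least 0.4% of their UMIs from Kcnq1, Kcne1, Esrrb, Lmx1a and Stac as a sum, and numbered 431 MethFix-only and 801 shared. Intermediate barcodes had at least 0.4% from Tyr, Dct, Mitf, Kcnj13 and Met, and numbered 517 and 631.

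Nuclei of both libraries were isolated from the stria vascularis of CBA/J mice at postnatal day 30. Each was pooled over several animals of both sexes, by the study's methods. For MethFix, nuclei were fixed in methanol once they had been isolated. For RNAlater, dissected tissue was held overnight in the preservative of that name and nuclei were isolated afterwards. The shared barcodes carried nearly the same counts in both matrices: gene by gene, 89.0% of their MethFix UMIs also stood in the RNAlater matrix, which held a median of 1.21 times as many UMIs per barcode. Whether the shared barcodes mark nuclei of the MethFix library, of the RNAlater library or of both cannot be told apart from these counts, so each ratio compares groups of barcodes in the MethFix matrix and may also set one library against the other. There was 1 library per method, so barcodes are not replicates and no test was made. Each gene is given as its summed UMIs, its level scaled to a group total of 1000000 UMIs (CPM) and the log2 ratio of MethFix-only CPM over shared CPM. Square brackets hold the exact 95% interval of that ratio, which covers counting error only. A gene is called higher or lower where the log2 ratio was at least 1 in size, among genes with 50 or more UMIs over both groups.

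The stria vascularis is the epithelium of the cochlear lateral wall that secretes potassium and maintains the endocochlear potential. Marginal cells face the endolymph and carry the potassium channel of KCNQ1 and KCNE1, intermediate cells are melanocyte-derived and make the melanin enzymes TYR and DCT, and basal cells seal the layer with CLDN11 tight junctions. A nuclear library reads mainly unspliced and nuclear RNA, and mitochondrial transcripts in it come from outside the nucleus.

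The lowest ratios were those of 3 genes of repeated sequence. Most of their UMIs came from Gm26870, a lincRNA gene at chr9:3000282-3038313 on the minus strand (GRCm38, GENCODE M21). Its transcripts repeat themselves with a period of 234 bases, and at that period 78.3%, 81.5% and 95.9% of the bases of its 3 transcripts were equal. The tandem repeat near mouse centromeres known as major satellite has this unit length. Gm10801 (chr2:98662237-98664083, plus strand) and Gm10800 (chr2:98666547-98667301, minus strand) held related sequence, but on the opposite strand. Of the 1059 different 25-base words in Gm26870, 116 stood in Gm10801 and 156 in Gm10800 as the reverse complement, and 0 stood in either on the same strand. Both sequences below are shown because these genes carried the lowest ratios. The Gm26870 stretch is 1 repeat unit in exon 1 (chr9:3038077-3038310, minus strand), and the Gm10801 stretch is the whole of exon 1, which is annotated as coding (chr2:98662237-98662522, plus strand). Both are written 5′ to 3′, and capitals mark bases in 25-base words whose reverse complement lies in the other gene, or for Gm26870 in Gm10801 or Gm10800.
Gm26870: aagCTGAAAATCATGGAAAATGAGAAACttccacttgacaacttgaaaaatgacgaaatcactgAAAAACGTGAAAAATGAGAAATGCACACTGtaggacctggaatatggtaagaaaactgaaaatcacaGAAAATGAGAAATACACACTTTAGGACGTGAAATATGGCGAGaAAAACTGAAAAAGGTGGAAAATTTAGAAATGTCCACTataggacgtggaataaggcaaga
Gm10801: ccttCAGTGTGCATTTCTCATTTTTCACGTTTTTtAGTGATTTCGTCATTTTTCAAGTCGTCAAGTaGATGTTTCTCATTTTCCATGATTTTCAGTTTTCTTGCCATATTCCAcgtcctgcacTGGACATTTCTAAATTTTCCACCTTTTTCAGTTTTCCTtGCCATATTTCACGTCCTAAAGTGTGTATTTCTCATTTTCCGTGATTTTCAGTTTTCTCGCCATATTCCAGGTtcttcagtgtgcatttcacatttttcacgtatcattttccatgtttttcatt
Capitals cover 134 of the 234 bases of Gm26870 and 217 of the 286 bases of Gm10801. A further 10 annotated genes shared 10 or more such words with these 3. Reads of near-identical copies can be split among genes or dropped, so the counts of all of them are uncertain. The further 10 held 1 UMI in MethFix-only and 23 in shared barcodes, so nearly all counts were assigned to Gm26870, Gm10801 and Gm10800.

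Gm26870 had 67 UMIs in the MethFix-only barcodes and 21209 in the shared barcodes, or 20.97 against 2165 CPM. The log2 ratio was -6.69 [-7.06, -6.34]. At least 1 UMI of Gm26870 was found in 26 of 1157 MethFix-only barcodes (2.25%, 1.47% to 3.28%) and in 2349 of 2439 shared barcodes (96.3%, 95.5% to 97.0%). It was thus present in nearly every shared barcode and in few others. Of the MethFix-only barcodes, 7 had 2 or more UMIs and the highest had 17, whereas 2235 shared barcodes had 2 or more and the median was 7.

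The gap in Gm26870 was present in each class. Marginal barcodes had 5 UMIs in MethFix-only and 9947 in shared (3.71 against 2497 CPM), a log2 ratio of -9.39 [-11.02, -8.17]. Intermediate barcodes had 37 and 4551 UMIs (21.7 against 1617 CPM), a log2 ratio of -6.22 [-6.72, -5.75]. Barcodes past neither limit had 26 and 6787 UMIs, a log2 ratio of -5.56 [-6.18, -5.01]. Depth was lower in the MethFix-only barcodes, and so the comparison was repeated by depth. Between 500 and 999 UMIs per barcode, Gm26870 stood at 15.3 CPM in MethFix-only and 4442 CPM in shared barcodes. Between 6000 and 8000 UMIs it stood at 30.2 and 1811 CPM. With each barcode thinned to 1000 UMIs, 0.911% of MethFix-only and 80.2% of shared barcodes held a UMI of Gm26870. In the RNAlater matrix, the shared barcodes held it at 2239 CPM.

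**Figure D1:**
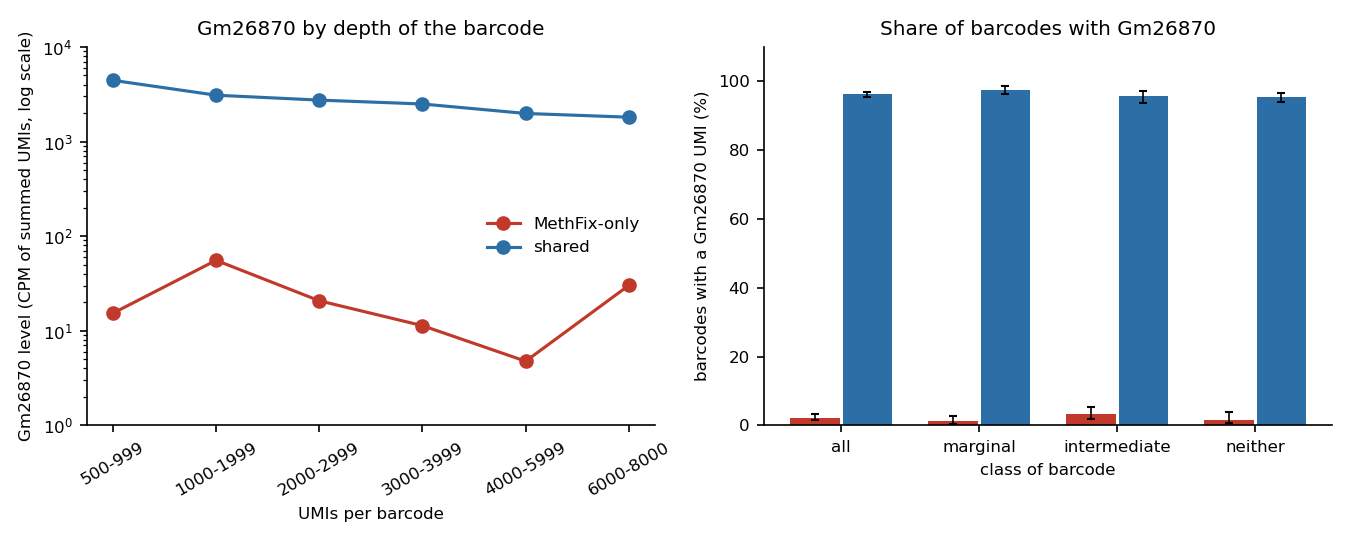
Left, Gm26870 level in CPM of summed UMIs (log scale) against UMIs per barcode, for MethFix-only (red) and shared (blue) barcodes. Right, share of barcodes with a Gm26870 UMI in each class, same colours, bars with exact 95% binomial intervals. The shared level lies far above the MethFix-only level in every band, from 4442 against 15.3 CPM in the lowest to 1811 against 30.2 CPM in the highest.

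Gm10801 had 0 UMIs in the MethFix-only barcodes and 1051 in the shared ones (107 CPM). Set to a floor of 3 counts over the group, it was at least 114-fold lower in MethFix-only. It was in 0 of 1157 MethFix-only barcodes, which allows a share of up to 0.259% at 3 counts of the total, and in 816 of 2439 shared barcodes (33.5%). It was also at 0 in MethFix-only marginal barcodes (at least 54.1-fold lower) and intermediate barcodes (at least 44.7-fold lower). Gm10800 had 1 and 100 UMIs, a log2 ratio of -5.03 [-10.35, -2.52].

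Properties of the barcodes moved with the group as well, and their part in the gene ratios was not tested. The median depth was 2356 UMIs per MethFix-only barcode (2236 to 2450) and 4057 per shared barcode (3971 to 4153). The median mitochondrial share was 1.48% (1.35% to 1.59%) and 0.443% (0.414% to 0.467%). Genes per barcode had medians of 1190 and 1954. After thinning to 1000 UMIs, which left out 169 MethFix-only and 105 shared barcodes, the medians were 631 and 680 genes, so the MethFix-only barcodes held fewer genes at equal depth too. Malat1, a nuclear-retained lncRNA, took a median of 17.8% of the UMIs of a MethFix-only barcode (17.1% to 18.7%) and 9.01% of a shared one (8.73% to 9.32%).

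The class makeup differed. Marginal barcodes made up 37.3% (34.5% to 40.1%) of MethFix-only and 32.8% (31.0% to 34.7%) of shared barcodes. Intermediate barcodes made up 44.7% (41.8% to 47.6%) and 25.9% (24.1% to 27.7%). Barcodes past both limits, which are counted in both classes, were 93 of 1157 (8.04%) in MethFix-only and 5 of 2439 (0.205%) in shared barcodes. Barcodes past neither limit were 26.1% and 41.5%. Just below and just above the marginal limit, at 0.1 percentage points either side, lay 66 and 70 MethFix-only and 48 and 44 shared barcodes. Around the intermediate limit lay 31 and 16 MethFix-only and 64 and 23 shared barcodes. Scrublet, a doublet caller, marked 192 of 1157 MethFix-only barcodes (16.6%) and 32 of 2439 shared barcodes (1.31%). At the expected doublet rate of 0.05 that was tried first, it marked 161 (13.9%) and 27 (1.11%). At the rate of 0.1 it marked 50 of the 93 MethFix-only barcodes past both limits. By class it marked 96 of 431 marginal (22.3%) and 125 of 517 intermediate (24.2%) MethFix-only barcodes. Of shared barcodes it marked 13 of 801 (1.62%) and 9 of 631 (1.43%). Many class results are therefore given below also without the barcodes past both limits. Leaving those out did not remove all marked barcodes from either class, so such values are not free of called doublets.

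**Figure D2:**
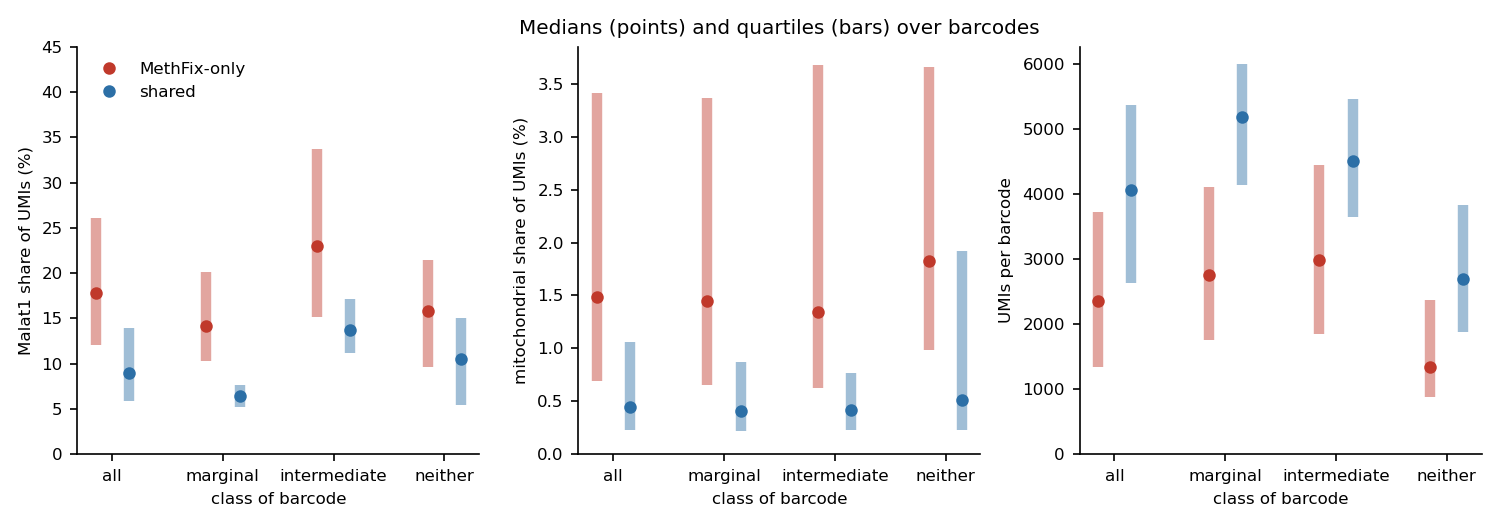
Median (points) and quartiles (bars) over barcodes of the Malat1 share of UMIs, the mitochondrial share of UMIs and UMIs per barcode, by class, for MethFix-only (red) and shared (blue) barcodes. MethFix-only barcodes have higher medians for the first 2 measures and fewer UMIs in all 4 columns, with overlapping quartile ranges in several of them.

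Over all barcodes, 11957 genes had enough UMIs, and their median log2 ratio was -0.19. Of these, 215 were higher in MethFix-only (1.8%) and 497 lower (4.16%). Scaling by TMM moved the median by 0.18, and the split became 337 higher and 329 lower. So the excess of lower genes depends on the scaling, whereas Gm26870 lay at -6.39 or below in each of the settings tried.

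The higher genes over all barcodes were led by neuronal and ciliary genes. Dnah12, an axonemal dynein heavy chain, had 122 UMIs in MethFix-only and 9 in shared barcodes (38.2 against 0.919 CPM), a log2 ratio of 5.38 [4.41, 6.54]. Most of it lay in few barcodes: 95 of the 122 UMIs were in 6 barcodes past neither limit. Rbfox3, a neuronal splicing factor, had 80 and 20 UMIs, a log2 ratio of 3.62 [2.90, 4.40], and 66 of the 80 were in 7 such barcodes. The potassium channel gene Kcnd2 had 357 and 87 UMIs, a log2 ratio of 3.65 [3.31, 4.01]. Fgf14, which modulates sodium channels, had 338 and 104 UMIs, a log2 ratio of 3.32 [3.00, 3.65]. Olfm3, Dnah5, Rbfox1, Kcnip4, Camk4, Rims1, Hydin and mt-Nd4l completed the 12 highest.

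Most MethFix-only UMIs of Dnah12 and Rbfox3 lay in barcodes past neither limit. There, 395 of 8531 genes tested were higher (4.63%) and 587 lower (6.88%).

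Of the motile cilia list, 8 of 11 genes tested were higher and none was lower (median 1.49, against -0.19 over all genes), beside 1.8% of all genes higher. Summed over the list, however, the level was 538 CPM in MethFix-only and 512 CPM in shared barcodes, a log2 ratio of 0.07 [-0.01, 0.15]. In barcodes past neither limit the ratio of the sums was 1.72 [1.57, 1.87]. Of the neuron list, 2 of 3 tested were higher (median 1.24). Genes were tested by their UMIs over both groups. Dnah12 (122 and 9 UMIs) and Rbfox3 (80 and 20 UMIs) passed this filter only through their MethFix-only UMIs. For such members, being tested was tied to being higher. The shares of higher genes in these 2 lists therefore cannot be set against that of all genes, and no shift of either list is read from them. With at least 200 UMIs per gene, 4 motile cilia genes were left with a median of -0.34 and 1 neuron gene at -0.36, so both medians rested on genes of low counts. The neuron median was also below 0 when the shared barcodes were weighted to the MethFix-only depths (-0.24). Foxj1, the defining regulator of motile cilia, had 5 UMIs in MethFix-only and 7 in shared barcodes.

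The lower genes over all barcodes began, apart from the repeat genes, with genes of low count in MethFix-only. Otx2os1, a lincRNA gene beside Otx2, had 21 and 576 UMIs (6.57 against 58.8 CPM), a log2 ratio of -3.16 [-3.86, -2.54]. Dkk2, a secreted Wnt modulator, had 140 and 2442 UMIs, a log2 ratio of -2.51 [-2.76, -2.26]. Nkain3 had 22 and 517 UMIs, a log2 ratio of -2.94 [-3.62, -2.32]. Scnn1b, a subunit of the epithelial sodium channel, had 5 and 172 UMIs, a log2 ratio of -3.49 [-5.13, -2.24]. RP23-416J8.1, Ntn1, Sorcs1, Bbox1 and Nxph1 made up the 12 with the repeat genes, and each held at most 9 UMIs in MethFix-only.

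Some markers of rarer cells of the lateral wall were among the lower genes. Of the spindle and root list, 4 of 7 were lower (median -1.18), beside 4.16% of all genes. Summed over the list, however, the level was 352 CPM in MethFix-only and 374 CPM in shared barcodes, a log2 ratio of -0.09 [-0.19, 0.01], and in barcodes past neither limit the ratio of the sums was 0.40 [0.26, 0.53]. Slc26a4, the anion exchanger pendrin, had 135 and 941 UMIs, a log2 ratio of -1.18 [-1.46, -0.92]. Lgr5 had 11 and 188 UMIs, a log2 ratio of -2.48 [-3.51, -1.61]. Epyc had 12 and 213 UMIs and Otog 4 and 127. Anxa1 ran the other way at 352 and 599 UMIs, a log2 ratio of 0.85 [0.66, 1.04], short of the fold. The other members tested also lay within the fold. In barcodes past neither limit, 3 of 7 members were lower and 1 was higher, at 1.61. Of all genes there, 6.88% were lower and 4.63% higher. Of the Reissner's membrane list, 2 of 4 were lower, Slc26a7 at 51 and 910 UMIs, a log2 ratio of -2.54 [-2.98, -2.13], and Vmo1 at 2 and 56. Vmo1 also passed the filter only through its shared UMIs, so no shift of that list is read from this share. In a pooled sum, fewer nuclei of a type and less RNA per nucleus cannot be told apart.

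**Figure D3:**
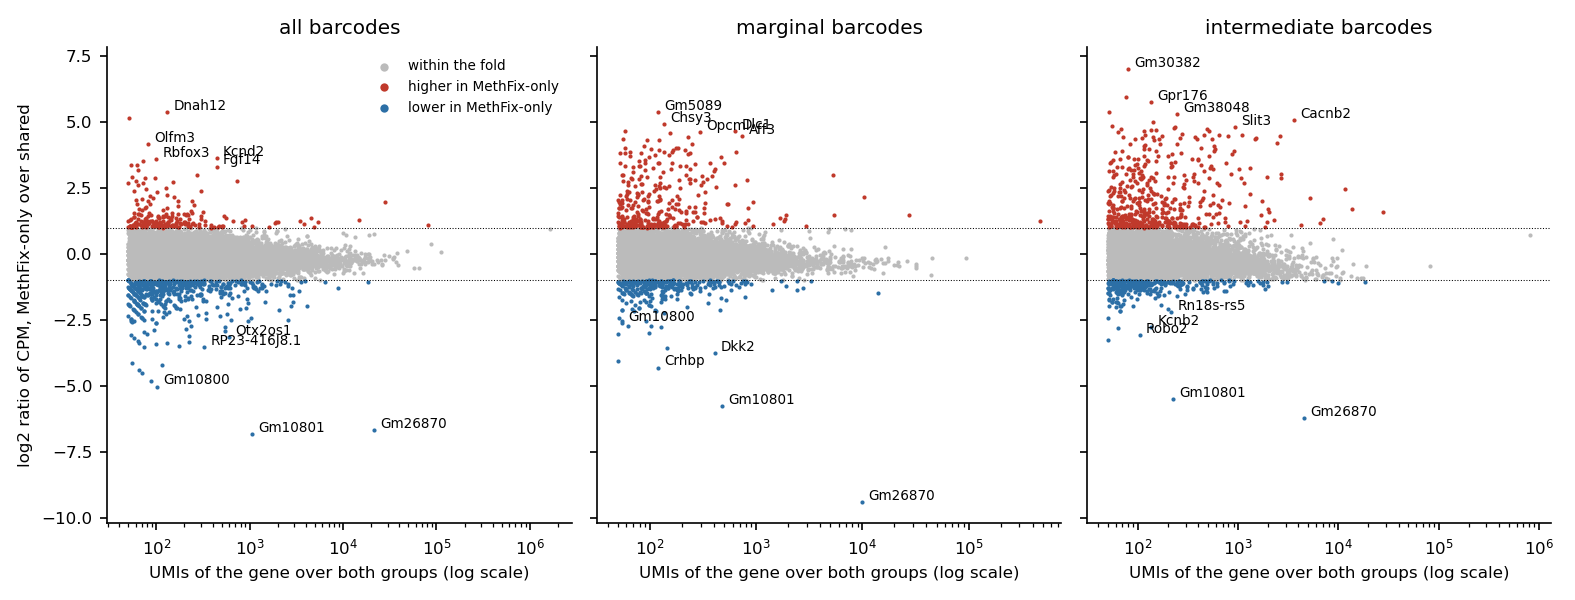
Log2 ratio of CPM, MethFix-only over shared, against the UMIs of the gene over both groups (log scale), over all, marginal and intermediate barcodes. Dotted lines mark the fold of 1 on the log2 scale and red and blue points the genes past it. Gm26870 and Gm10801 lie below the other genes in each panel.

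Mitochondrially encoded genes were among the higher genes of MethFix-only barcodes in each class, and are given beside the nuclear genes of the same respiratory chain. Summed over the 13 listed mitochondrial genes, the level was 12383 CPM in MethFix-only and 5560 CPM in shared barcodes. Of 11 tested, 5 were higher over all barcodes (median 0.77), as were 4 of 9 in marginal (median 0.81) and 7 of 8 in intermediate barcodes (median 1.34) without those past both limits. Of all genes tested, 1.8%, 2.27% and 3.92% were higher in the same comparisons. mt-Cytb, the cytochrome b gene, had 15653 and 12174 UMIs (4900 against 1243 CPM), a log2 ratio of 1.98 [1.94, 2.01]. mt-Nd2 was at 2404 and 1408 CPM, a log2 ratio of 0.77 [0.73, 0.81], so members differed by more than their counting error. Of 20 nuclear respiratory chain genes tested, 1 was higher over all barcodes (median 0.01), as were 1 of 20 in marginal and 2 of 20 in intermediate barcodes. Of all genes tested in these marginal and intermediate barcodes, 3.68% and 5.59% were higher. Without the barcodes past both limits, none of 20 and none of 19 were. Ribosomal protein genes gave 3 of 25 higher over all barcodes (median -0.04), also above the 1.8% of all genes. Without the barcodes past both limits, none of 15 was higher in marginal and 1 of 14 in intermediate barcodes. In barcodes past neither limit 5 of 13 were lower (median -0.87), beside 6.88% of all genes. Both groups of barcodes had been limited to at most 10% mitochondrial UMIs.

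In marginal barcodes, 9034 genes were tested, 332 were higher (3.68%) and 294 lower (3.25%). With TMM the split was 425 and 176. The higher genes included Dlc1 with 571 and 67 UMIs, a log2 ratio of 4.65 [4.29, 5.04], and Aff3 with 653 and 86 UMIs, a log2 ratio of 4.49 [4.16, 4.83]. Pax3, a melanocyte transcription factor, had 107 and 16 UMIs. Without the barcodes past both limits, Pax3 had 3 and 14 UMIs and Dlc1 had 54 and 52, a log2 ratio of 2.12 [1.54, 2.70]. The genes of the intermediate rule summed to 4076 CPM in MethFix-only and 889 CPM in shared marginal barcodes. Leaving out the barcodes past both limits removes those with the most of these genes by construction, so no value is read from them there. Tyr, itself a gene of the intermediate rule, was in 112 of 431 MethFix-only marginal barcodes (26.0%) and in 7.99% of shared ones. Of those 112, 78 were past both limits. The rule caps Tyr in barcodes past neither limit, so they give no reference for it.

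Without those barcodes, 198 genes were higher (2.27%) and 343 lower (3.93%) in marginal barcodes. Gm5089 led with 83 and 8 UMIs (87.6 against 2.02 CPM), a log2 ratio of 5.44 [4.40, 6.70]. Ebf1, a transcription factor of mesenchymal cells, had 234 and 98 UMIs, a log2 ratio of 3.32 [2.98, 3.68]. Cemip, which degrades hyaluronan, had 163 and 84 UMIs, a log2 ratio of 3.02 [2.63, 3.42]. Col27a1, a fibrillar collagen gene, had 64 and 34 UMIs, a log2 ratio of 2.98 [2.36, 3.62]. Of the basal cell list, 5 of 7 genes were higher in these marginal barcodes (median 2.11), among them Cacna1e and Nr2f2. Cldn11, in contrast, was at 106 and 81.6 CPM, a log2 ratio of 0.37 [0.03, 0.70]. Col27a1, also of this list, passed the filter on UMIs over both groups only through its MethFix-only UMIs. For such members, being tested was tied to being higher. No shift is therefore read from that share or from list medians in marginal barcodes. Summed over the list without that filter, the level was 467 CPM in MethFix-only and 221 CPM in shared barcodes, a log2 ratio of 1.08 [0.91, 1.24]. Over all barcodes the basal list had a median of -0.48. When the barcodes that Scrublet marked were left out instead, 4 basal genes still had enough UMIs and their median in marginal barcodes was 0.50. At an expected doublet rate of 0.05 in place of 0.1, 5 genes had enough and the median was 1.38. With both kinds of barcode left out, 3 genes remained and the median was -0.023.

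Lower genes in marginal barcodes included secreted proteins and transporters. Spp1, the secreted phosphoprotein osteopontin, had 1505 and 12510 UMIs (1116 against 3140 CPM), a log2 ratio of -1.49 [-1.57, -1.41], and -1.40 [-1.49, -1.31] without the barcodes past both limits. Dkk2 had 10 and 397 UMIs, a log2 ratio of -3.75 [-4.82, -2.85]. Crhbp, which binds corticotropin-releasing hormone, had 2 and 117 UMIs. Slc26a2, a sulfate transporter gene, had 33 and 428 UMIs, a log2 ratio of -2.13 [-2.69, -1.62]. The 8 potassium secretion genes that the rule does not use gave a median of -0.67 without the barcodes past both limits, with 1 higher and none lower, and with Slc12a2, the basolateral cotransporter, at 5642 and 9362 CPM, a log2 ratio of -0.73 [-0.77, -0.69]. Kcnq1 and Kcne1 belong to the class rule and are not read here.

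In intermediate barcodes, 8645 genes were tested, 483 were higher (5.59%) and 314 lower (3.63%). With TMM the split was 612 and 160. Cacnb2, a calcium channel subunit gene, had 3480 and 171 UMIs (2045 against 60.8 CPM), a log2 ratio of 5.07 [4.85, 5.30]. It was in 44.1% of MethFix-only and 8.24% of shared intermediate barcodes, beside 35.4% and 19.6% of the barcodes past neither limit. Marginal barcodes held Cacnb2 in 99.3% and 96.4% of cases. Slit3, a secreted guidance cue, had 873 and 51 UMIs, a log2 ratio of 4.82 [4.42, 5.26]. Ank3, a scaffold of the spectrin skeleton, had 2447 and 184 UMIs, a log2 ratio of 4.46 [4.24, 4.68]. Without the barcodes past both limits, 325 genes were higher (3.92%) and 269 lower (3.25%). Cacnb2 then had 1259 and 71 UMIs, a log2 ratio of 5.25 [4.91, 5.62]. Over the 17 alternative settings, Cacnb2 ranged from 2.74 to 5.68, Slit3 from 2.67 to 5.92 and Ank3 from 2.41 to 4.64. Each stayed past the fold in all of them, but lay outside its interval in 7, 8 and 7 settings.

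Lower genes in intermediate barcodes included a guidance receptor and a lipid enzyme. Robo2, a receptor for SLIT proteins, had 7 and 97 UMIs, a log2 ratio of -3.07 [-4.42, -1.97]. Scd1, a fatty acid desaturase gene, had 23 and 146 UMIs, a log2 ratio of -1.94 [-2.64, -1.30]. Of the melanin list, 2 of the 5 tested genes that the rule does not use were lower without the barcodes past both limits (median -0.82): Slc24a5 at 28 and 134 UMIs and Trpm1 at 16 and 82. Slc45a2 was at 493 and 835 CPM, a log2 ratio of -0.76 [-0.89, -0.63], and Gpr143 at 68.4 and 120 CPM. The remaining tested gene was at -0.02, above the median of -0.21 over all genes. Of all genes in this comparison, 3.25% were lower.

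Calls were also compared between the classes, without the barcodes past both limits. Of 7470 genes tested in both, 38 were higher in both. That is 23.0% of the 165 higher in marginal barcodes, beside 3.87% of all 7470 that were higher in intermediate barcodes. It is 13.1% of the 289 higher in intermediate barcodes, beside 2.21% of all 7470 that were higher in marginal barcodes. A further 28 were lower in both. That is 13.5% of the 208 lower in marginal barcodes, beside 2.37% of all 7470 that were lower in intermediate barcodes. It is 15.8% of the 177 lower in intermediate barcodes, beside 2.78% of all 7470 that were lower in marginal barcodes. Opposite calls were made for 5 genes, 1 higher and 4 lower in marginal barcodes. Genes were named from those with at least 50 UMIs in the group where they were higher, a filter that depends on direction and left 16 higher in both, 22 lower in both and none opposite. The 16 included mt-Cytb at 2.01 and 2.40, mt-Rnr2 at 1.34 and 1.54, mt-Co1 at 1.25 and 1.62 and mt-Nd5 at 1.21 and 1.40. Col27a1 stood at 2.98 and 2.39, Cemip at 3.02 and 1.50, and Prpf4b, a kinase of the spliceosome, at 1.32 and 1.23. In the intermediate class Cemip, Gm5089 and Col27a1 were not stable to the class limit (at 0.2% they were at -0.75, -0.60 and 0.03), and Col27a1 was at 0.56 with mean CPM per barcode.

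**Figure D4:**
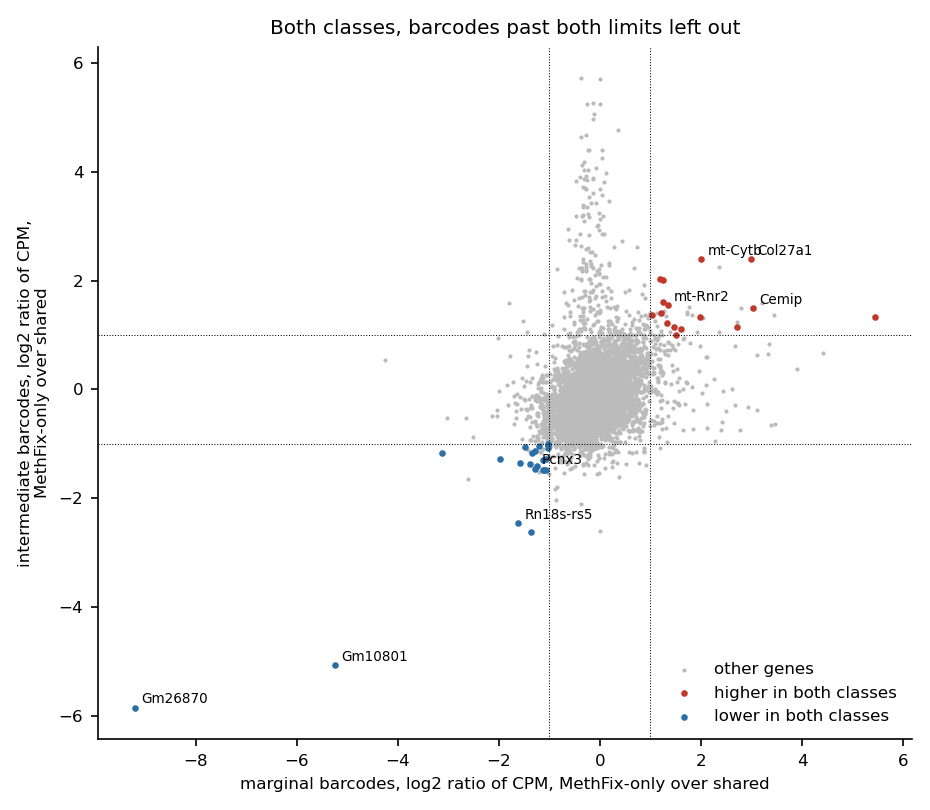
Log2 ratio in intermediate against marginal barcodes, 1 point per gene tested in both, with barcodes past both limits left out. Red and blue points are the 16 and 22 genes past the fold in the same direction in both classes with at least 50 UMIs in the higher group, and dotted lines mark the fold. Gm26870 and Gm10801 lie alone at the lower left.

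The 22 genes lower in both classes were led by Gm26870 and Gm10801. Rn18s-rs5, a copy of ribosomal RNA sequence, stood at -1.62 in marginal and -2.46 in intermediate barcodes, and its copies share reads. Per1, a clock gene and glucocorticoid target, stood at -1.38 and -1.36, with 12 and 131 UMIs in marginal barcodes and 15 and 83 in intermediate barcodes. Atf4, the transcription factor of the integrated stress response, stood at -1.20 and -1.04. Scd1 stood at -1.37 and -2.63 and Pcnx3 at -1.28 and -1.46. Over all barcodes the circadian list gave 1 of 18 lower (median -0.39) and the glucocorticoid targets 3 of 11 lower (median -0.46), Fkbp5 at -1.07 and Tsc22d3 at -1.04 among them. Per1, at -1.20, is counted in both lists. Immediate early genes gave 1 of 12 lower (median -0.73, against -0.19 over all genes), and heat shock genes none of 14. With 4.16% of all genes lower, 1 of 18 and 1 of 12 are near that share by count. Without the barcodes past both limits, 3 of 7 immediate early genes were lower in marginal barcodes (median -0.70), beside 3.93% of all genes. In intermediate barcodes none of 7 was lower (median -0.05). Of the glucocorticoid targets, 2 of 8 were lower and 1 was higher in these marginal barcodes (median -0.39). In these intermediate barcodes 1 of 9 was lower and 2 were higher (median 0.19). Of all genes in the same comparisons, 3.93% and 3.25% were lower and 2.27% and 3.92% higher.

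**Figure D5:**
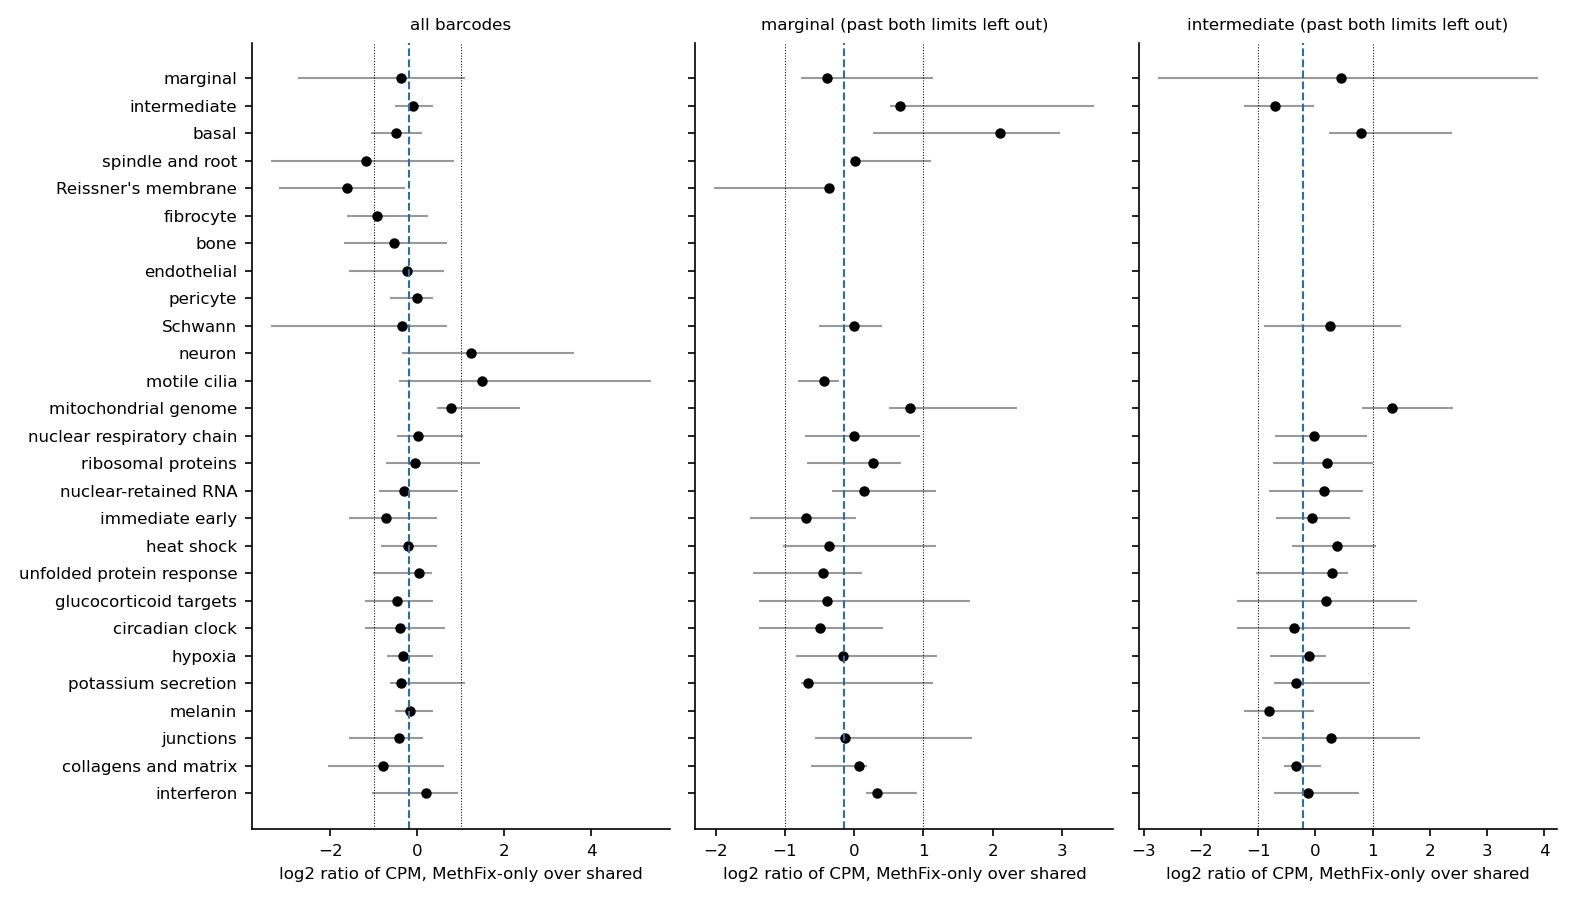
Median (points) and range (lines) of the log2 ratio over the tested members of each gene list that no class rule uses, over all barcodes and over marginal and intermediate barcodes with those past both limits left out. Dotted lines mark the fold and the dashed line the median of all genes tested. The mitochondrial genome list lies to the right of that median in each panel.

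Malat1 had 641394 UMIs in MethFix-only and 1021326 in shared barcodes. Its log2 ratio was 0.95 over all, 1.23 in marginal and 0.71 in intermediate barcodes. Xist, which silences the X chromosome in females, had 2098 and 8874 UMIs, a log2 ratio of -0.46 [-0.53, -0.40]. It was in 825 of 1157 and 2050 of 2439 barcodes, and in 46.0% and 54.0% after thinning. Y-linked genes had 1 and 12 UMIs. Of the 12 shared barcodes with a Y-linked UMI, 11 also held Xist. Both pools held male mice by the study's methods, and why Y-linked counts were so low was not tested.

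Median ratios also differed with the length of the gene, mainly among shorter genes. Over all barcodes, the median log2 ratio was 0.03 in genes of the shortest genomic span (up to 9.75 kb, 2384 genes). It was -0.25 from 39.5 to 87.9 kb and -0.26 in the 2384 genes of the longest span (87.9 kb or more). Of these longest genes, 65 were higher and 152 lower. Calls within the classes ran the other way. In marginal barcodes, 140 of the longest genes (89.2 kb or more) were higher and 42 lower. In intermediate barcodes, 199 (94.9 kb or more) were higher and 69 lower. Without the barcodes past both limits, these counts were 59 and 37, and 141 and 48. By type, protein-coding genes had a median of -0.19 and lincRNA genes, the type of Gm26870, one of -0.17.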

How the data were processed

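Both matrices hold whole-number UMI counts, made by the authors with Cell Ranger 3.0.1 on GRCm38 per the file headers and the submitters' processing notes, with no normalization. The deposited counts cover 48816 genes, of which 48349 matched a GENCODE M21 gene by identifier, with versions ignored. Matrices were read with Python 3.11.15, UMIs were summed over the barcodes of each group, and sums were divided by the group's total UMIs. Totals were 3194779 UMIs in MethFix-only and 9796597 in shared barcodes.

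Genes with 50 or more UMIs over both groups entered the counts, at a log2 ratio of 1 or more in size. A sum of 0 was set to 3 counts, which makes the ratio a bound. Intervals are exact conditional binomial for ratios, exact binomial for shares and order-statistic for medians. They cover counting error only, since both groups come from 1 matrix. The procedure was tested on simulated sums that held counting error alone, so spread among barcodes was not covered by that test. Genes named per comparison were the first 12 per direction when ranked by the interval bound nearest to 0, the rule genes left out, plus members of 34 gene lists. Members and lists were chosen with earlier results of these data known. Comparisons without the barcodes past both limits, among barcodes past neither, of calls shared by the classes under 1 filter, and of lists without rule genes were added after seeing the data.

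The Scrublet function of scanpy 1.11.5 called doublets on 30 principal components. The expected rate was first set to 0.05. After those results had been seen it was changed to 0.1, the rate in the study's methods, and results at both rates are given. TMM factors came from edgeR 4.0.16. Alternatives covered scaling, count filters, depth, doublets, barcode limits, class limits and the RNAlater counts of the shared barcodes. Results of 2 listed genes are not reported here.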

Additional observations from a re-analysis of the deposited data

Results flagged for a closer look

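Of the listed or named genes reported here, 6 lay past the fold in opposite directions in the 2 classes, and the difference was not tested. In marginal and intermediate barcodes the log2 ratios were 4.18 and -1.04 for Bnc2, 4.94 and -1.07 for Chsy3, 1.08 and -1.39 for Cpeb1 and 1.63 and -1.33 for Sdk1. For Nkain2 they were -1.62 and 1.12, and for Per2 -1.23 and 1.73. Each of the first 4 genes had more UMIs in the intermediate than in the marginal barcodes. Without the barcodes past both limits, the ratios in marginal barcodes were 1.76 for Bnc2 (17 and 21 UMIs), 2.07 for Chsy3 (6 and 6 UMIs) and 0.26 for Sdk1 (12 and 42 UMIs), and Per2 had 25 and 19 UMIs in intermediate barcodes.

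Gm26870 was also read in the 545 barcodes that stood in the RNAlater matrix only, which enter no comparison above. There it was at 301 CPM, in 60 of the 545 barcodes (11.0%), with a median mitochondrial share of 48.4%.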

How the results depend on the processing

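Both groups held different barcodes of 1 matrix, so no paired analysis of them was possible. Each preservation method has 1 library, and no test was made. The order below is higher then lower genes, over all, marginal and intermediate barcodes where given. Counts moved by over 1.5 times as follows. TMM gave 337 and 329 over all barcodes, 176 lower in marginal and 160 lower in intermediate barcodes, and the median of ratios gave 340 and 328, 176 and 156. With 1 UMI as the only filter they were 985 and 1394, 1322 and 1087, and 1630 and 1179. With at least 200 UMIs they were 60 and 175, 79 and 72, and 165 and 85. Thinning to 1000 UMIs gave 113 higher over all, 86 and 148 in marginal and 138 and 172 in intermediate barcodes. Weighting the shared barcodes to the MethFix-only depths gave 947 lower over all. Leaving out Scrublet doublets gave 217 higher in marginal barcodes, leaving out those past both limits 198, and leaving out both kinds 146 in marginal and 231 in intermediate barcodes. A class limit of 0.8% gave 124 higher in marginal barcodes. With no upper limit on UMIs, 738 were higher in marginal barcodes, and 989 higher and 513 lower in intermediate barcodes. The construction of each filter accounts for a change in genes tested, and otherwise the cause was not tested. Of 96 such counts 62 stayed within 1.5 times. A similar count need not hold the same genes. Thinning gave 450 lower genes over all barcodes, of which 169 were also lower in the main setting. A class limit of 0.8% gave 340 lower in marginal barcodes, 121 of them lower in the main setting. Leaving out Scrublet doublets gave 521 lower over all barcodes, 391 of them lower in the main setting. Scrublet at an expected rate of 0.05, run first, gave 259 and 370 higher and 302 and 294 lower genes in marginal and intermediate barcodes, against 217 and 341 and 318 and 282 at 0.1.

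Malat1 and Xist were added to the named genes here. Then 23 of 26 over all, 35 of 47 in marginal and 27 of 47 in intermediate barcodes lay past the fold in every alternative setting with enough UMIs. In the main setting, Xist was past the fold in none of these comparisons and Malat1 only in marginal barcodes. Of 1786 alternative values of these genes, 425 kept their sign but lay outside the interval of the main value, and 5 reversed. Signs reversed in intermediate barcodes at a class limit of 0.2% for 5430416O09Rik (-0.38), Cacna1e (-0.43), Cemip (-0.75) and Gm5089 (-0.60), and for Cemip with depth weights (-0.0091). List medians reversed for the neuron list with 200 UMIs (-0.36), depth weights (-0.24), thinning (-1.07), mean CPM per barcode (-0.58) and no upper limit (-0.98), for the motile cilia list with 200 UMIs (-0.34) and thinning (-0.10), and for the basal list in marginal barcodes without doublets and barcodes past both limits (-0.023). Small counts limit most named genes outside the repeat, mitochondrial and Malat1 transcripts.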

Other observations

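Of the RNAlater-only barcodes, 36 were inside the limits used for MethFix. They held Gm26870 at 7694 CPM, in 29 of 36 barcodes (80.6%), at a median depth of 571 UMIs. In the MethFix matrix, the 268 MethFix-only barcodes outside the limits held Gm26870 at 20.2 CPM with a median of 10707.5 UMIs, and the 884 shared barcodes outside the limits held it at 912 CPM with a median mitochondrial share of 46.1%. A low level of Gm26870 was thus read in the barcodes unique to MethFix inside and outside the limits, and a high one in the few RNAlater-only barcodes inside them. Of the 221 UMIs of Gm26870 in all 545 RNAlater-only barcodes, 168 lay in those 36, so the RNAlater-only barcodes outside the limits held few. The reason for these differences was not tested.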
